A study of Mus musculus with 36 samples.

Results

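The interferon response genes were followed in brown fat (BAT, for brown adipose tissue), white fat (WAT) and liver of the same 12 mice. They comprised 33 genes taken by name, namely interferon-regulated transcription factors, sensors of foreign nucleic acid, antiviral effectors, interferon-induced GTPases and parts of the antigen processing machinery. Their members were the probe sets of the microarray whose annotated gene symbol was exactly 1 of the 33 names. This left 31 genes with 47 probe sets, out of 18193 genes and 45037 probe sets tested. Of the 31 genes, 20 had 1 probe set and 11 had several, and such a gene was represented by the probe set with the highest mean over the 36 arrays. Isg15 shared its only probe set with Gm9706, no probe set was annotated to Ifi44, and neither gene entered a count. The animals were male ddY mice, an outbred stock, aged 5 weeks at the start and acclimated for 1 week. The CAAM group consisted of 5 mice (numbers 2, 4, 5, 6 and 7) gavaged once daily for 5 days with a 1.8% solution of an amino acid mixture that mimics casein. The water group consisted of 7 mice (numbers 1 to 7) gavaged with water on the same schedule. All mice were killed 4 h after the last dose, and each gave 1 array of BAT, 1 of WAT and 1 of liver. The study left out further CAAM mice with abnormal liver morphology, and its other amino acid mixture was not analysed here.

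Interferons are cytokines, and those of type I are released by cells that sense viral or other foreign nucleic acid. Type I interferons act through a complex with STAT2 and IRF9 that binds the interferon-stimulated response element (ISRE) of target promoters, and type II interferon, interferon gamma, acts on promoters with the gamma-activated site (GAS). Low tonic signalling keeps the target genes on in healthy tissue, where the level of their mRNA is often read as a measure of the interferon tone. In bulk tissue, a change in the number of cells of a type and a change in RNA per cell cannot be told apart.

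The promoters below are shown because these genes were among those that varied most alike between the tissues of a mouse, and because their motifs belong to both branches of the pathway. RefSeq sequences of build GRCm38.p6, from 250 bases before to 50 after a start site, were found for 26 of the 33 genes. The core of the ISRE was searched as GAAANNGAAA and the GAS as TTCNNNGAA, on both strands, and capitals mark the matches. Igtp lies at chr11:58199306-58199605, Irgm2 at chr11:58214727-58215026, Ifit3 at chr19:34583279-34583578, Gbp2 at chr3:142620413-142620712 and Irf1 at chr11:53769764-53770063, all on the plus strand.
Igtp: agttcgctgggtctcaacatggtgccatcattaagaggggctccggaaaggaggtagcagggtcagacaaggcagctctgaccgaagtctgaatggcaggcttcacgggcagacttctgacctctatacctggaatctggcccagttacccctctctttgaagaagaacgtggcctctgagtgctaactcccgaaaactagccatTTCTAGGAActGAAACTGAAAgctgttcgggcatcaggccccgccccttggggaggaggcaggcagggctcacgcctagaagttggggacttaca
Irgm2: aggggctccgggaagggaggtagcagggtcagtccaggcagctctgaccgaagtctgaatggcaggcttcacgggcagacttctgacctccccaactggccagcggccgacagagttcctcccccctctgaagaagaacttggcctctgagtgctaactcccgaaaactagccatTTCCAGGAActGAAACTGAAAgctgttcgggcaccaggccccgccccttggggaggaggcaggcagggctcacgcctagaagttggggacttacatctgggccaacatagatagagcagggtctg
Ifit3: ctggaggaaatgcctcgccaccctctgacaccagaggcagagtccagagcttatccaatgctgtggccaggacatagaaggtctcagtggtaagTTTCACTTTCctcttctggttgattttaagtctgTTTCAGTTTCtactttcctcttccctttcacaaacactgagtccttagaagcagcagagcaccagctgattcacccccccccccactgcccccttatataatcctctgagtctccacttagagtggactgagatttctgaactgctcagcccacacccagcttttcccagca
Gbp2: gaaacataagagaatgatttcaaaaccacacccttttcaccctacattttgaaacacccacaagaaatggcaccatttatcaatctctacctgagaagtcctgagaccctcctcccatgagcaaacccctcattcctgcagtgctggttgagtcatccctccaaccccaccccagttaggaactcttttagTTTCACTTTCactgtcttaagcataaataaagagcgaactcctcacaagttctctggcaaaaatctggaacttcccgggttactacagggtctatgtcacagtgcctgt
Irf1: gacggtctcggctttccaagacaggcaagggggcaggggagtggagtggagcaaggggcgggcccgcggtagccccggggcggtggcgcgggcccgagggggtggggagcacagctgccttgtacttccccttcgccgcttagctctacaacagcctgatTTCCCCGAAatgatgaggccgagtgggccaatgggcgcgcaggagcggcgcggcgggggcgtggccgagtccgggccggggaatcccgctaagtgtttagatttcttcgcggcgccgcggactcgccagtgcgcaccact
Igtp and Irgm2, neighbouring genes, shared a run of 61 identical bases and held both motifs, the ISRE core 34 bases before the start site of Igtp and 64 before that of Irgm2. Irf1 held only the GAS, 90 bases before the start site shown, and Ifit3 and Gbp2 held only ISRE cores, read on the other strand. A second listed promoter of Irf1 (chr11:53770223-53770522) held neither motif, and neither did the promoter of Ifi47. The ISRE core occurred in 14 of the 26 promoters (53.8%), against 3.99% of the 27025 genes with a promoter of the same length. The GAS occurred in 6 of 26 (23.1%), against 9.55% of all genes. Both occurred in 3 of 26 (11.5%), Igtp, Irgm2 and Bst2, against 0.54% of all. Shorter windows show 1 ISRE core each of Ifit1 (chr19:34640794-34640823, plus strand), of Irgm1 (chr11:48871425-48871454, minus strand) and of Bst2 (chr8:71537577-71537606, minus strand), genes described further on. Each of these promoters held 2 ISRE cores, and only 1 is in capitals in its window. In the windows of Irgm1 and Bst2, the other core overlaps it and is left partly in lower case.
Ifit1: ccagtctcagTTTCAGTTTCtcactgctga
Irgm1: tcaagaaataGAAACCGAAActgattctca
Bst2: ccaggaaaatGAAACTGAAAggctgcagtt
A match describes letters in the window and not a bound site, and binding was not measured.

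Expression was measured as a distribution free weighted (DFW) score, whose level resembles a log2 signal. Deviations between arrays are shrunk in it by a factor of the probe set, so that a difference in score is not a fold change. The median SD between mice was 7.38e-06 score units over all probe sets of BAT, 1.42e-05 in WAT and 1.08e-05 in liver. The interferon response genes were among the most variable probe sets, and 24, 21 and 27 of the 31 lay in the top 10% by SD in BAT, WAT and liver. A mouse's position is therefore given in SD units, its score minus the mean of the 12 mice over their SD, and a group difference also as the standardised difference, which is divided by the SD within groups. Tissue identity followed the labels: Ucp1 scored 14.2 in BAT, 6.44 in WAT and 6.28 in liver, Lep 7.34, 11.3 and 6.43, and Alb 6.54, 6.98 and 15.0. The exception was Dio2, a marker of brown fat, which scored 7.11 in BAT, 6.91 in WAT and 7.05 in liver. In BAT, the arrays of CAAM mouse 2 and water mice 1, 3 and 7 carried skeletal muscle genes, with Acta1 at 12.4 or higher against 8.90 or lower in the other 8. In WAT, those of CAAM mice 6 and 7 and water mice 1 and 2 carried Adam7, a gene of the male tract, at 8.70 or higher against 8.08 or lower in the others. Other genes of the male tract marked different arrays: Lcn8 was 6.36 to 6.71 in the CAAM mice, 19.9 and 18.4 in water mice 1 and 2 and 9.32 to 10.9 in water mice 3 to 7, and Spint4 was high in CAAM mice 6 and 7 only (12.1 and 8.22). Results that rest on the BAT arrays with muscle genes or the 4 WAT arrays with high Adam7 are also given without them.

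The same animals stood high, and the same animals low, in all 3 tissues. In BAT, the median of the 31 genes was 2.12 SD units above the mean of the mice in CAAM mouse 7, 0.95 in CAAM mouse 5 and 0.73 in water mouse 3, while no other mouse exceeded −0.06. In WAT, the medians of these mice were 1.53, 0.45 and 1.68, and no other mouse exceeded −0.02. In liver they were 0.81, 1.5 and 1.35, and the next highest was CAAM mouse 6 at 0.47. At the low end, CAAM mouse 4 had medians of −1.04 in BAT, −0.62 in WAT and −1.04 in liver, water mouse 1 had −0.78, −0.99 and −0.86, and water mouse 6 had −0.63, −0.98 and −1.15. Both treatments thus held high and low animals. CAAM mouse 7 was above the mean in 30, 31 and 30 of the 31 genes in BAT, WAT and liver, CAAM mouse 5 in 30, 27 and 31, and water mouse 3 in 25, 30 and 30. CAAM mouse 4 was above it in 1, 3 and 0 genes, water mouse 1 in 2, 1 and 2, and water mouse 6 in 5, 1 and 0. The highest mouse differed by tissue: CAAM mouse 7 was the highest in 19 genes of BAT, water mouse 3 in 15 of WAT and CAAM mouse 5 in 14 of liver. These mice were singled out after their values were seen.

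**Figure D1:**
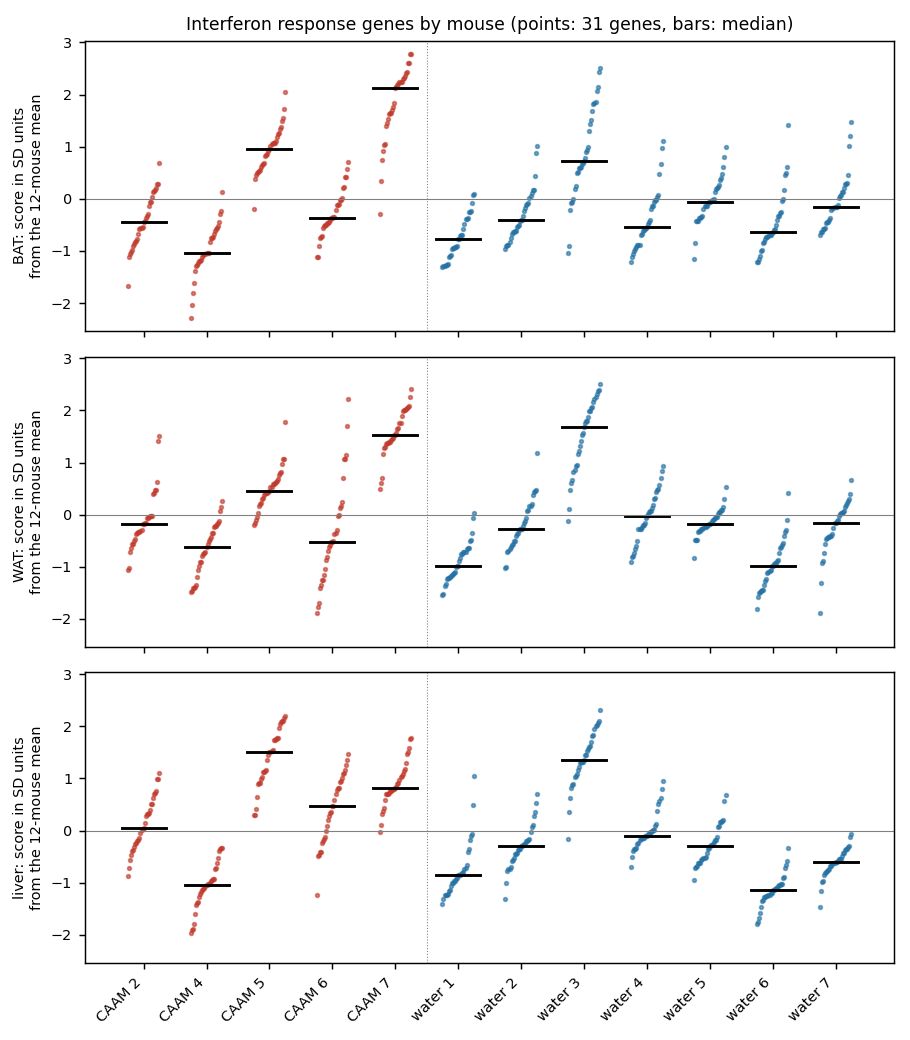
Score of each of the 31 genes (points) in SD units from the mean of the 12 mice, by mouse, in BAT, WAT and liver, with bars at the median. CAAM mice are on the left in red and water mice on the right in blue. CAAM mice 5 and 7 and water mouse 3 have medians above 0 in all 3 panels, and CAAM mouse 4 and water mice 1 and 6 below 0.

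To ask whether a gene was high in the same animals of 2 tissues, Spearman's rho over the 12 mice was computed for each probe set. The median rho of the 31 genes was 0.70 between BAT and WAT, 0.62 between BAT and liver and 0.71 between WAT and liver, whereas that of all probe sets was 0.112, 0.119 and 0.042. Spearman's rho was above 0 in 30, 31 and 31 genes of these pairs of tissues. At an unadjusted permutation p under 0.05 with rho above 0, as counted throughout, 23 of 31 genes varied alike between BAT and WAT (background 8.47% of all probe sets), 19 between BAT and liver (7.3%) and 23 between WAT and liver (4.76%). In all 3 pairs, 15 of 31 (48.4%) did so, against 1.14% of all probe sets. After Benjamini-Hochberg adjustment over all 45037 probe sets, no member was called in any pair, and the background was 0.0711%, 0.0% and 0.0%. The lowest adjusted p of a member was 0.0643 (Ifit3) between BAT and WAT, 0.116 (Igtp) between BAT and liver and 0.296 between WAT and liver. The 31 genes are not independent of each other, since they rise and fall together across the mice of a tissue. Over their 465 pairs the median rho within a tissue was 0.57 in BAT, 0.62 in WAT and 0.77 in liver, against 0.01, 0.02 and 0.01 over pairs of all genes.

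Water mouse 3, CAAM mouse 7 and CAAM mouse 5 weighed in these values. Between BAT and liver, the genes with p under 0.05 numbered 12, 12 and 11 without each of them. With the pair of mice farthest from the gene's median in the fat left out (BAT for the 2 fats), the median Pearson's r was 0.61 between BAT and WAT, 0.63 between BAT and liver and 0.67 between WAT and liver, against 0.80, 0.65 and 0.76 in all 12. The median rho without that pair was 0.60, 0.44 and 0.60. Among the 7 water mice alone, the median rho was 0.68, 0.46 and 0.75, and with scores centred within treatments it was 0.68, 0.64 and 0.72. Without the 4 BAT arrays with muscle genes it was 0.67 between BAT and WAT and 0.64 between BAT and liver, and without the 4 WAT arrays with high Adam7 0.71 between BAT and WAT and 0.74 between WAT and liver. On these 8 mice, 11 genes had p under 0.05 between BAT and WAT and 11 between BAT and liver without the BAT arrays, and 15 between BAT and WAT without the WAT arrays. Quantile normalization of the scores lowered the median rho to −0.00883, 0.398 and 0.343. That step changed the median SD of the members to 0.0012 in BAT, 0.00314 in WAT and 0.000912 in liver, against 0.000447, 0.00136 and 0.00104 in the deposited scores. It changed that of all probe sets to 0.000555, 0.00181 and 9.62e-05, against 7.38e-06, 1.42e-05 and 1.08e-05.

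For the GTPases that guard against intracellular pathogens, the median rho over genes and tissue pairs was 0.79, and all 18 values had p under 0.05. Igtp (Irgm3), an immunity-related GTPase of intracellular membranes, had scores in BAT of 8.574, 8.554, 8.599, 8.560 and 8.608 in CAAM mice 2, 4, 5, 6 and 7, and of 8.542 (lowest), 8.561 (median) and 8.609 (highest, mouse 3) in water mice. In WAT its scores were 8.922, 8.901, 8.931, 8.874 and 8.959 in the CAAM mice, and 8.849, 8.887 and 8.992 (mouse 3) in water mice. In liver they were 9.833, 9.762, 9.879, 9.800 and 9.844 in the CAAM mice, and 9.753, 9.785 and 9.899 (mouse 3) in water mice. The 2 groups overlapped in each tissue, and water mouse 3 was the highest of all 12 animals in each. Spearman's rho for Igtp was 0.94 between BAT and liver (permutation p = 5e-05, adjusted p = 0.116, r = 0.94 and p = 3e-05), 0.85 between BAT and WAT and 0.73 between WAT and liver. Without water mouse 3 and CAAM mouse 7, the r between BAT and liver was 0.97.

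Irgm2 (GTPI), whose promoter resembles that of Igtp, followed the same order of mice. In liver its scores were 9.432, 9.405, 9.439, 9.418 and 9.433 in CAAM mice 2, 4, 5, 6 and 7, and 9.400, 9.413 and 9.454 (mouse 3) in water mice. In BAT they were 7.605, 7.600, 7.611, 7.601 and 7.613 in the CAAM mice, and 7.596, 7.602 and 7.615 (mouse 3) in water mice. The groups overlapped again, with water mouse 3 on top in both tissues. Spearman's rho for Irgm2 was 0.89 between BAT and WAT, 0.90 between BAT and liver and 0.80 between WAT and liver, with permutation p = 0.00028, 0.00025 and 0.00269 and adjusted p = 0.076, 0.131 and 0.369. Irgm1, a GTPase of autophagy and macrophage defence, had rho of 0.78, 0.78 and 0.84 in the same order. Ifi47 (IRG-47), another immunity-related GTPase, had 0.89, 0.61 and 0.75. The guanylate-binding proteins, which attack the vacuoles of parasites and bacteria, behaved likewise, with rho of 0.77, 0.87 and 0.66 for Gbp2 and 0.82, 0.65 and 0.71 for Gbp3. The probe set of Gbp2 may cross-hybridise by its name, and the other probe set of this gene gave 0.66, 0.91 and 0.69.

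**Figure D2:**
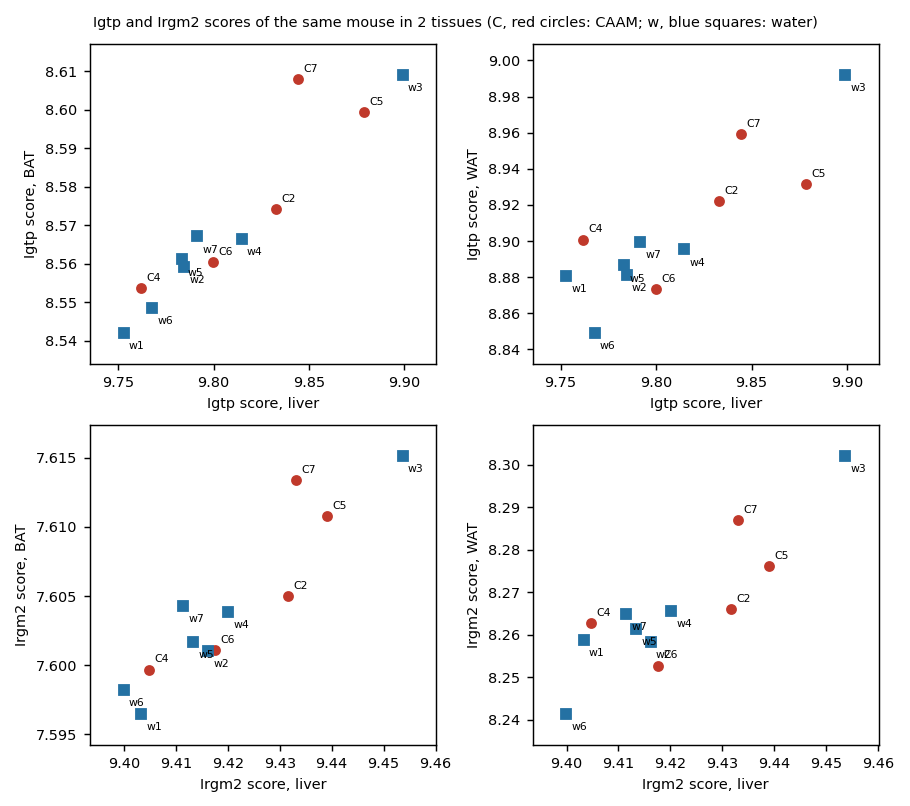
DFW scores of Igtp (upper panels) and Irgm2 (lower panels) in BAT (left) and WAT (right) against the score of the same gene in the liver of the same mouse. Red circles are CAAM mice and blue squares water mice, each with its number. Spearman's rho is 0.94 for Igtp and 0.90 for Irgm2 between BAT and liver, and 0.73 and 0.80 between WAT and liver.

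Of the transcription factors, Irf1, which drives the secondary response to interferon gamma, varied alike in all 3 pairs, with rho of 0.76 between BAT and WAT, 0.83 between BAT and liver and 0.83 between WAT and liver. Its liver position in SD units was −0.15, −0.95, 0.91, −1.23 and 0.84 in CAAM mice 2, 4, 5, 6 and 7, and −1.20 (lowest), −0.06 (median) and 2.31 (highest, mouse 3) in water mice. Water mouse 3 stood apart at the top, and CAAM mouse 6 and water mouse 6 lay together at the bottom. Irf9, the DNA-binding subunit of the type I complex, had rho of 0.64, 0.69 and 0.77 in these pairs of tissues, and only 0.40 as Pearson's r between BAT and WAT. Irf7, the master regulator of type I interferon genes, had 0.85, 0.41 and 0.69, and Stat2 had 0.62, 0.48 and 0.76. For both, the value between BAT and liver missed p under 0.05 (permutation p = 0.191 and 0.12).

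Sensors of nucleic acid were divided. Zbp1, a sensor of Z-form nucleic acid that triggers cell death, varied alike in all pairs, with rho of 0.82, 0.85 and 0.85 between BAT and WAT, BAT and liver, and WAT and liver. Its position in WAT in SD units was 0.48, −0.56, 0.76, 0.16 and 2.41 in CAAM mice 2, 4, 5, 6 and 7, and −1.31, −0.71 and 0.60 (mouse 3) in water mice. CAAM mouse 7 was the highest here, and the groups overlapped. The RNA helicases did not follow: Ifih1 (MDA5) had rho of 0.34, 0.34 and 0.05, and Ddx58 (RIG-I) had −0.11, 0.40 and 0.46, and none of these values had p under 0.05. The SD of Ddx58 between mice was 1.06e-05, 2.4e-05 and 1.59e-05 in BAT, WAT and liver. The median of all probe sets was 7.38e-06, 1.42e-05 and 1.08e-05. That of Ifih1 was 2.32e-05, 0.000287 and 0.000175. The part of small spreads in these rho values was not tested. Dhx58 (LGP2), a regulator of both helicases, had rho of 0.71, 0.20 and 0.51. Its other probe sets gave −0.38, 0.41 and −0.23, then 0.09, 0.03 and −0.13. Those of Ddx58 gave −0.62, 0.40 and −0.61, then 0.56, −0.08 and 0.28.

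Usp18, the protease that removes ISG15 from proteins and dampens the type I receptor, had rho of 0.59, 0.72 and 0.74 in the 3 pairs. In BAT, CAAM mouse 7 stood apart at 2.78 SD units and the next highest mouse, water mouse 5, was at 0.61. Without CAAM mouse 7 and CAAM mouse 4, r fell to 0.28 between BAT and WAT and 0.35 between BAT and liver. The IFIT proteins, which bind viral RNA, had a median rho of 0.80. Ifit3 reached 0.92 between BAT and WAT (permutation p = 9e-05, adjusted p = 0.0643), 0.85 between BAT and liver and 0.80 between WAT and liver. Its position in BAT was −1.05, −1.07, 0.92, 0.70 and 2.14 SD units in CAAM mice 2, 4, 5, 6 and 7, and −1.11, −0.25 and 0.89 (mouse 3) in water mice. In WAT it was −0.63, −1.19, 0.41, 0.12 and 1.76 in the CAAM mice, and −1.23, −0.29 and 1.87 (mouse 3) in water mice. CAAM mouse 7 was the highest in BAT and water mouse 3 in WAT, and the groups overlapped in both fats. Ifit1 had rho of 0.89, 0.57 and 0.72, and Ifit2 had 0.83, 0.71 and 0.67.

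The OAS family, of which Oas2 makes the second messenger that activates RNase L, was less alike, with a median rho of 0.55 and p under 0.05 in 4 of 9 values. Oasl1, a repressor of Irf7 translation, had 0.76, 0.62 and 0.38, Oasl2 had 0.74, 0.71 and 0.55, and Oas2 had 0.53, 0.50 and 0.52. The Mx GTPases, which block the replication of RNA viruses, had 0.40, 0.66 and 0.71 for Mx1 and 0.27, 0.44 and 0.73 for Mx2. Mx1 lay below the median probe set in every tissue. So did Dhx58, Ifit1 and Oasl2 in BAT, Zbp1, Oasl1 and Mx2 in WAT, and Oasl2 and Gbp2 in liver. In BAT, the SD between mice was 4.98e-06 for Mx1 and 6.63e-06 for Mx2, below the median of all probe sets (7.38e-06). In WAT, that of Mx2 was 3.84e-06, against a median of 1.42e-05. Oasl1 had SDs of 1.61e-05 in BAT and 3.07e-05 in WAT, with a rho of 0.76. In antigen processing, Psmb8 and Psmb9, catalytic subunits of the immunoproteasome, had rho of 0.66, 0.60 and 0.51 and of 0.62, 0.60 and 0.71, and Tap1, a subunit of the peptide transporter, had 0.66, 0.64 and 0.59. Of the other effectors, Bst2 (tetherin), which holds budding virus at the cell surface, had 0.70, 0.71 and 0.64, and Rsad2 (viperin), a radical SAM enzyme, had 0.63, 0.31 and 0.76. Xaf1, a proapoptotic protein, had 0.50, 0.56 and 0.75, and the ADP-ribosyltransferase Parp14 had 0.54, 0.56 and 0.62. Trim30a, a negative regulator of inflammatory signalling, had 0.49, 0.24 and 0.48, while its other probe set gave 0.65, 0.71 and 0.85. Other second probe sets were often less alike. That of Stat2 gave 0.53, 0.02 and 0.44, of Zbp1 0.54, 0.75 and 0.44, and of Psmb8 0.31, −0.06 and −0.04. That of Xaf1 gave −0.20, 0.0 and −0.31, and of Parp14 0.59, 0.39 and 0.08. Those of Tap1 gave 0.22, 0.25 and 0.54, then 0.06, 0.01 and −0.12, then 0.15, 0.09 and 0.23. Those of Rsad2 gave 0.44, 0.76 and 0.76, then 0.66, 0.44 and 0.82.

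**Figure D3:**
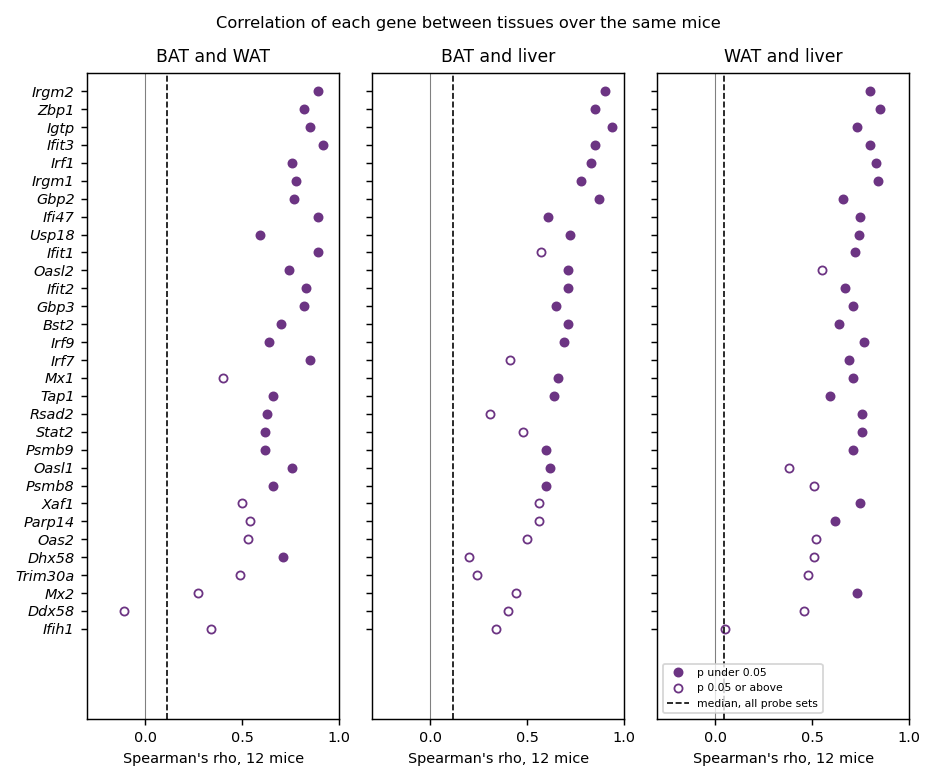
Spearman's rho over the 12 mice of each gene between BAT and WAT, BAT and liver, and WAT and liver. Filled points have an unadjusted permutation p under 0.05 (23, 19 and 23 of 31 genes), open points do not, and dashed lines give the median of all probe sets (0.112, 0.119 and 0.042).

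Next, CAAM was set against water within each tissue. The mean was higher in CAAM mice for 26 of the 31 genes in BAT (background 49.2% of all probe sets higher), 27 in WAT (51.1%) and 30 in liver (44.5%). The median standardised difference of the genes was 0.434, 0.261 and 0.643, against −0.0131, 0.0144 and −0.0885 over all probe sets. No gene had groups that did not overlap (background 0.329%, 0.222% and 0.442%). By rank products, the test of the study, at an estimated share of false positives (pfp) under 0.05, 8 genes were higher in BAT (background 1.19% higher and 2.06% lower), 5 in WAT (0.822% and 1.96%) and 16 in liver (1.63% and 1.18%). Irf1 in liver was the only gene called lower. Rank products orders raw score differences, and all members called lay in the top 10% of probe sets by SD. Of that 10%, 11.9%, 8.21% and 16.3% were called higher. By limma, no gene was called in any tissue (background 0.0% in each), and the lowest adjusted p of a gene was 0.844 in BAT, 1.0 in WAT and 0.68 in liver. At an unadjusted limma p under 0.05 there were 0, 2 and 1 of the 31 genes, namely Oas2 and Zbp1 in WAT and Trim30a in liver. The background was 2886, 1784 and 3047 of all probe sets (6.41%, 3.96% and 6.77%).

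The counts in the fats rested on CAAM mouse 7. Without it, the mean was higher in CAAM mice for 15 genes in BAT and 13 in WAT, and the median standardised difference was −0.0294 and −0.0793. Without water mouse 3, the median in WAT was 0.689. In liver the median stayed above 0 whichever mouse was left out, between 0.462 and 1.14, with 1.13 without CAAM mouse 4 and 1.14 without water mouse 3. The calls by rank products numbered 2 in BAT without CAAM mouse 5 and 2 without CAAM mouse 7. In WAT there were 3, 1 and 2 without CAAM mice 2, 5 and 7, and in liver 11 and 10, both directions counted, without CAAM mice 5 and 7. With differences divided by the SD before ranking, no member was called in any tissue. Without the 4 WAT arrays with high Adam7, the mean was higher for 10 genes and the median was −0.15. Without the 4 BAT arrays with muscle genes, it was higher for 26 genes with a median of 0.764.

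In liver, the genes called higher came from most roles. Among the GTPases, Gbp3 had a mean score of 7.328 ± 0.00818 in CAAM mice and 7.320 ± 0.00756 in water mice (SD, n = 5 and 7), a difference of 0.00743 ± 0.00443 (SE) and a standardised difference of 0.95 (rank products pfp = 0.000341). Igtp had 9.823 ± 0.0446 and 9.799 ± 0.0481, a difference of 0.0244 ± 0.0265 that was smaller than its error (pfp = 0.00029). Ifi47 had a standardised difference of 0.768, Irgm1 of 0.843, Irgm2 of 0.514 and Gbp2 of 0.375, and all were called. The Ifit1 difference of 0.494 and the Ifit3 difference of 0.643 were called as well, and so were those of Irf9 (0.958), Zbp1 (0.822) and Usp18 (0.718). Psmb8 (0.799), Psmb9 (0.353), Rsad2 (0.513) and Xaf1 (0.823) completed the list with Trim30a. None of them was called by limma.

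Trim30a had the largest standardised difference in liver, 1.67 (limma, adjusted p = 0.68). Its position was −0.39, −0.34, 2.2, 1.16 and 1.15 SD units in CAAM mice 2, 4, 5, 6 and 7, and −1.15, −0.50 and 0.09 in water mice. All 5 CAAM mice were above the water median, and mice 5, 6 and 7 were above every water mouse. Its other probe set gave 1.57. Irf1, called lower in liver (pfp = 0.0318), had a standardised difference of −0.189. Water mouse 3 was its highest animal, and without it the difference was 0.229, without CAAM mouse 4 it was 0.00953 and without CAAM mouse 6 it was 0.0794.

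In BAT, rank products called Ifit3 (standardised difference 0.559), Gbp2 (0.0642, and −0.176 without CAAM mouse 7), Gbp3 (0.491), Igtp (0.636), Irgm2 (0.502), Psmb8 (0.801), Psmb9 (0.942) and Bst2 (0.578) higher. Psmb9 was at 0.20, −0.67, 1.56, −0.74 and 2.21 SD units in CAAM mice 2, 4, 5, 6 and 7, and at −0.96, −0.52 and 0.73 (mouse 3) in water mice. Its CAAM mice were split, with mice 5 and 7 above every water mouse and mice 4 and 6 below the water median. In WAT, Zbp1 (1.29), Gbp3 (0.307), Igtp (0.487), Irgm2 (0.261) and Psmb9 (0.361) were called higher, and without CAAM mouse 7 the last 2 were −0.0134 and −0.0793. Zbp1 had a mean score of 6.787 in WAT, below the median probe set. Oas2 in WAT had the largest standardised difference of any member in any tissue, 1.71 (limma, adjusted p = 1.0), and was not called by rank products. Its position there was 1.5, −0.99, 0.82, 1.07 and 1.45 SD units in the CAAM mice, and −1.22, −0.66 and 0.11 in water mice. CAAM mice 2, 5, 6 and 7 were above every water mouse, and CAAM mouse 4 was among the low ones.

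The difference between CAAM and water was itself compared between tissues within mice. No gene was called by limma for BAT against WAT (background 0.0622%), BAT against liver (0.273%) or WAT against liver (0.329%), with lowest adjusted p of 0.244, 0.697 and 0.518. At an unadjusted p under 0.05 there were 1, 0 and 0 of the 31 genes (background 8.65%, 9.48% and 9.96%). That 1 gene was Oas2, whose difference between CAAM and water was 2.18 ± 0.69 SD units (SE) lower in BAT than in WAT.

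**Figure D4:**
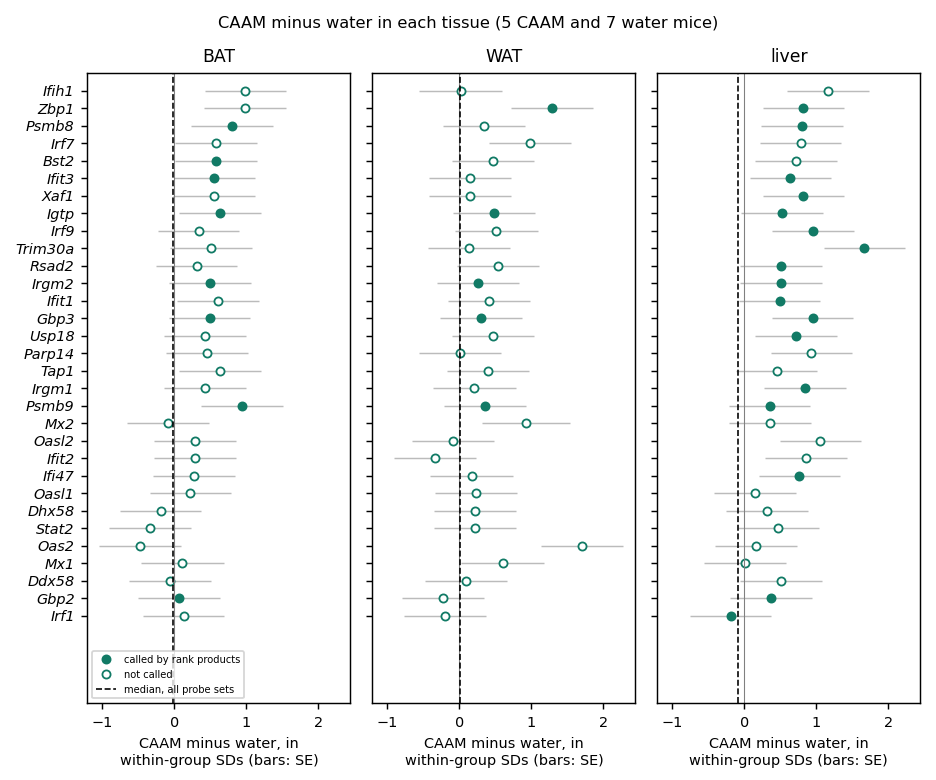
Standardised difference of each gene between 5 CAAM and 7 water mice in BAT, WAT and liver, with bars of 1 SE. Filled points were called by rank products (8, 5 and 17 genes), open points were not, and dashed lines give the median of all probe sets. Most points lie right of 0 in each panel, and Irf1 in liver is the called point to the left.

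The genes also differed in level between tissues. Since most arrays of a tissue shared their highest score and the tissues did not, each tissue had evidently been quantified on its own, and levels are set across these tables. At this spread 99.8% of all probe sets differed between BAT and WAT, 99.9% between BAT and liver and 99.8% between WAT and liver by limma, and a change was counted only where the adjusted p was under 0.05 and the difference at least 1 score unit. BAT had the lowest mean score for 23 of the 31 genes, WAT the highest for 16, liver the highest for 14 and BAT for 1, Mx1. The share of all probe sets lowest or highest in each tissue was not counted. Array medians ran in a similar order, 6.780 to 6.782 in BAT, 6.807 in liver and 6.913 to 6.919 in WAT. Between BAT and WAT, 0 genes were higher and 5 lower (background 1.77% and 4.9%), and none of the 5 stayed past 1 score unit when all arrays were quantile normalized together. Between BAT and liver, 1 was higher and 5 lower (4.6% and 5.02%), and between WAT and liver, 5 were higher and 2 lower (8.34% and 3.95%). The median difference was −0.48, −0.30 and 0.12 score units, against −0.0938, −0.0195 and 0.0514 for all probe sets.

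Gbp2 had the widest range, with mean scores of 8.80 in BAT, 9.90 in WAT and 6.80 in liver, where it lay below the median probe set. Gbp3 ran in the same order, with 8.20 in BAT, 8.87 in WAT and 7.32 in liver. The immunity-related GTPases ran the other way: Irgm2 scored 7.60, 8.27 and 9.42, Igtp 8.57, 8.91 and 9.81, and Ifi47 7.23, 8.31 and 8.86. Bst2 likewise was highest in liver, with 8.39 in BAT, 9.02 in WAT and 11.1 in liver. Ifih1 was lower by 1.27 score units in BAT than in either other tissue, where it scored 8.74. Ifit2 was lower by 1.21 and Trim30a by 1.19 in BAT than in WAT, and both were higher in WAT than in liver, by 1.10 and 1.01. Xaf1 was higher by 1.16 in WAT than in liver. With all arrays quantile normalized together, Ifih1, Ifit2 and Trim30a were lower by 0.97, 0.95 and 0.91 in BAT than in WAT, and Ifit2, Trim30a and Xaf1 higher by 0.84, 0.73 and 0.86 in WAT than in liver, all under 1 score unit. For each of these genes, the 12 scores did not overlap between the tissues compared. The share of all probe sets without such overlap was not counted, but 99.8% or more of them differed between these tissues by limma.

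**Figure D5:**
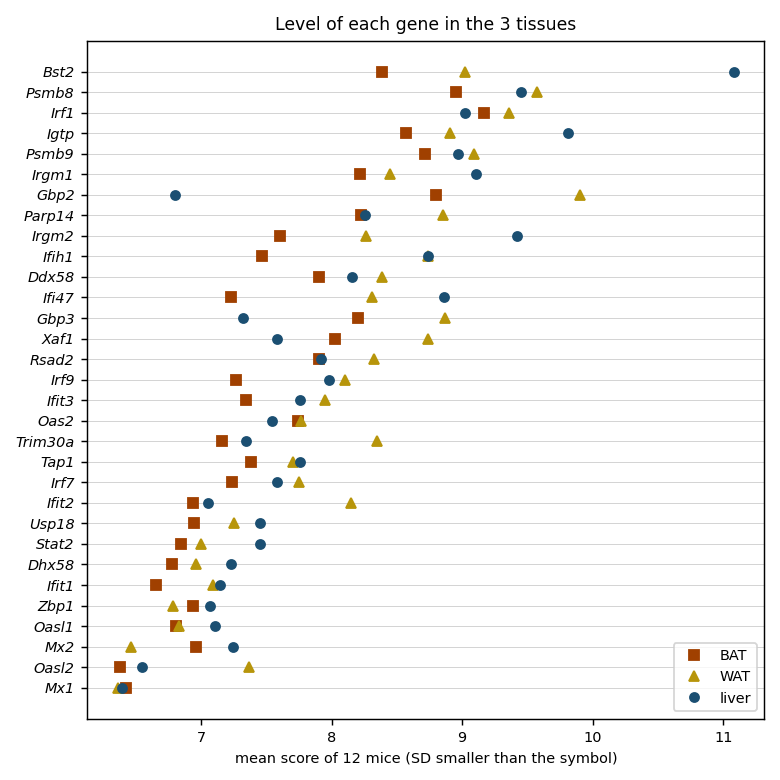
Mean DFW score of each gene over 12 mice in BAT (squares), WAT (triangles) and liver (circles), ordered by the mean of the tissues. The SD over mice is smaller than the symbols. BAT holds the lowest score for 23 of 31 genes, and Gbp2 and Bst2 span the widest ranges. The share of all probe sets lowest in BAT was not counted.

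Genes upstream of the interferon response were examined in short lists, where the background alone gives few calls. Of all probe sets, rank products called 1.19%, 0.822% and 1.63% higher in BAT, WAT and liver, and 2.06%, 1.96% and 1.18% lower. Of 18 interferon genes listed, 10 were measured, and 9, 9 and 8 of them lay below the median probe set in BAT, WAT and liver. Ifnb1 scored 6.37, 6.37 and 6.62 and Ifng 6.07, 6.09 and 6.27, and neither was called. None of the 10 was called by rank products. Between BAT and WAT, BAT and liver, and WAT and liver, 0, 0 and 1 of them had p under 0.05 (background 8.47%, 7.3% and 4.76%). Of the 6 receptor subunits and of the 4 JAK-STAT transducers measured, none was called, nor was any of 14 adaptors and upstream kinases of 16. The mean was higher in CAAM mice for 2, 0 and 4 receptors in BAT, WAT and liver, with median standardised differences of −0.0876, −0.668 and 0.743, and for 3, 1 and 4 transducers, with 0.116, −0.0556 and 0.858. Of 8 negative regulators of 9, Socs1, an inhibitor of JAK kinases, was not called. Socs3, the related inhibitor of gp130 signalling, was called lower in liver. Its standardised difference there was 0.0643, slightly above 0, so the call and the means differed in direction. Socs3 was also the only one with p under 0.05 in all 3 pairs (background 1.14%), with rho of 0.78, 0.67 and 0.59.

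Other interferon-induced genes, 45 measured of 54 and none a member, were set beside them. Their mean was higher in CAAM mice for 30, 30 and 43 genes in BAT, WAT and liver, with median standardised differences of 0.186, 0.138 and 0.618. Rank products called 11, 7 and 14 of them higher and 2, 0 and 1 lower, against 1.19%, 0.822% and 1.63% higher and 2.06%, 1.96% and 1.18% lower of all probe sets, with Cxcl9 in both directions in BAT and liver. The chemokine Ccl5 was called higher in each tissue (standardised difference 0.74, 1.31 and 1.01), as were Gbp6 (0.724, 0.55 and 0.718), Gbp7 (0.391, 0.155 and 0.618) and Rtp4 (0.587, 0.634 and 0.447). Between BAT and WAT 18, between BAT and liver 18 and between WAT and liver 15 of them had p under 0.05. The background was 8.47%, 7.3% and 4.76% of all probe sets. In all 3 pairs there were 9 of these genes (background 1.14%), namely Rtp4, Parp9, Dtx3l, Ifi35, Pml, Gbp6, Gbp7, Iigp1 and Cxcl10. Spearman's rho reached 0.95 between WAT and liver for Rtp4 and 0.95 between BAT and liver for Iigp1, an immunity-related GTPase. Of 18 other antigen presentation genes 15 were measured, and rank products called 1, 2 and 5 higher and 3, 1 and 0 lower in BAT, WAT and liver. In the 3 pairs, 10, 6 and 3 of them had p under 0.05 (background 8.47%, 7.3% and 4.76%). The class I gene H2-D1, the TAP-binding protein gene Tapbp and the aminopeptidase gene Erap1 did so in every pair (1.14%).

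Some lists of immune cell markers stood high in some of these animals, and others did not. The median of 15 T and NK cell markers was 1.43, 2.46 and 0.40 SD units in BAT, WAT and liver of CAAM mouse 7 and 1.57, 1.0 and 2.11 in CAAM mouse 5. In water mouse 3 it was −0.08, 0.07 and 0.30. The median of the B cell markers was −0.07, 0.11 and 0.46 in CAAM mouse 7 and −0.22, −0.72 and −0.84 in CAAM mouse 5. Macrophage and Kupffer cell marker medians were 0.30, 1.72 and 0.51 in CAAM mouse 7 and 0.62, 0.35 and 2.14 in CAAM mouse 5. In water mouse 6, a low animal for the interferon response genes, they were 1.79, −0.21 and −1.55. The median of the macrophage and Kupffer cell markers in water mouse 3 was −0.11, 0.65 and 0.57, that of the B cell markers 0.57, 1.15 and −0.20, and that of the plasmacytoid dendritic cell markers, which include Bst2, −0.34, 0.08 and 1.16. Of the 15 T and NK cell markers, 11, 8 and 11 lay below the median probe set in BAT, WAT and liver. Their mean score in BAT ran between 6.6906 and 6.692 in CAAM mice and between 6.6906 and 6.6914 in water mice. In WAT it ran between 6.9043 and 6.9172 in CAAM mice and between 6.9037 and 6.9086 in water mice. In liver it ran between 6.7929 and 6.8059 in CAAM mice and between 6.7916 and 6.7947 in water mice. The 16 macrophage and Kupffer cell markers all had a higher mean in the liver of CAAM mice, with a median standardised difference of 1.25, against 6 of 16 in BAT and 6 of 16 in WAT. Their mean score in liver ran between 8.8543 and 8.8675 in CAAM mice and between 8.846 and 8.8567 in water mice, and was highest in CAAM mouse 5, with a median of 2.14 SD units. Rank products called 13 of these 16 markers higher in liver (background 1.63%), and 1 higher and 7 lower in BAT (1.19% and 2.06%). None was called in WAT, and limma called none in any tissue. The part of the immune cell markers in the differences between mice and between treatments was not tested.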

How the data were processed

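The data were 36 Affymetrix mouse arrays of total RNA from BAT, WAT and liver of 5 CAAM and 7 water mice. From the scanned arrays the authors made DFW scores with Bioconductor, in R 2.7.2 by their submission notes, and the deposited table holds a score for each probe set on each array. This score is only roughly level with a log2 signal, and its deviations between arrays are weighted. The log2 scale for which the tests had been planned therefore did not hold, and the tests were kept. Of 45101 rows, 64 control probe sets were left out and 45037 tested. The annotation gave 1 gene symbol to 34945 probe sets, several to 932 and none to 9160. The members and lists were chosen with earlier results of these data known. Precision is limited by how many arrays there were.

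Rank products (all 35 pairs of arrays, 100 permutations, 20 in alternatives, pfp under 0.05 in each direction) was written in python 3.11.15 with numpy 2.4.6, pandas 2.3.3 and scipy 1.17.1. limma 3.58.1 in R 4.3.3 gave differences, SE and two-sided p values, adjusted by Benjamini-Hochberg over all probe sets, with 0.674, 0.497 and 0.625 prior degrees of freedom in liver, WAT and BAT. Tissues were compared by limma on differences within mice. Spearman's rho between tissues had a two-sided permutation p (100000 permutations), adjusted likewise. Scripts were tested on simulated data. Named with values were the members called by rank products, the 5 largest tissue differences past 1 score unit in each direction, up to 4 called genes of each pathway list, and Socs1, Ifnb1 and Ifng; 1 further gene of the rule is not reported here. Since no member was called between tissues after adjustment, all members are given there, and genes outside the rule were named after their values were seen. Other settings tried were quantiles made equal, arrays centred on their medians, a filter on dim probe sets, ranks of SD-scaled differences, the trend and robust prior, the mouse number as a block, other choices of probe set, and leaving out each mouse. Added after seeing the data were the unadjusted p between tissues, quantile normalization for rho, unmoderated variances and the runs without arrays that stood apart. No batch is given in the sources used here. Figures were drawn with matplotlib 3.10.9.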

Additional observations from a re-analysis of the deposited data

Results flagged for a closer look

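In 34 of 186 groups of mice, 1 animal stood far from the others of its treatment, where chance gives about 1 in 20, and 31 of these were water mouse 3 at the top. The value is its gap to the next animal over the range of the group. In BAT, water mouse 3 was apart for Gbp2 (0.706), Gbp3 (0.587), Igtp (0.626), Irgm1 (0.733), Irgm2 (0.581), Ifi47 (0.607), Tap1 (0.83) and Psmb9 (0.582). In WAT it was apart for Ifit2 (0.591), Gbp3 (0.58), Igtp (0.647), Irgm1 (0.584), Irgm2 (0.602), Ifi47 (0.661), Tap1 (0.678) and Psmb9 (0.58). In liver it was apart for Irf1 (0.605), Irf7 (0.608), Ddx58 (0.784), Zbp1 (0.606), Ifit1 (0.759), Ifit3 (0.617), Gbp3 (0.609), Igtp (0.577), Irgm1 (0.619), Irgm2 (0.624), Tap1 (0.622), Psmb8 (0.607), Psmb9 (0.615), Xaf1 (0.568) and Parp14 (0.584). The genes are not independent of each other, and the same animal recurs. The BAT array of this mouse was among the 4 with muscle genes, and its WAT array had Lcn8 at 10.9, below water mice 1 and 2 and above the other 9. Water mouse 5 was the highest of its group for Irf7 in BAT (0.591). CAAM mouse 4 was the lowest of its group for Oas2 in WAT (0.73) and for Oasl1 in liver (0.782).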

How the results depend on the processing

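The calls depended on the choice of test and on single animals, and the cause was not tested. Under quantile normalization, rank products called 498 probe sets in BAT and 573 in WAT, against 1430 and 1186, and 3 and 1 members, against 8 and 5. limma then called 1 probe set in liver, and 16 members had a higher mean in WAT. The median rho was −0.00883 between BAT and WAT, 0.398 between BAT and liver and 0.343 between WAT and liver, with 7, 9 and 10 members at p under 0.05, and Tap1 between BAT and WAT had a rho of −0.08. Without dim probe sets, rank products called 756, 575 and 650 probe sets in BAT, WAT and liver, and 11 members in liver against 17. With differences divided by the SD, it called 274, 143 and 334 probe sets and 0, 0 and 0 members. Centred arrays gave a median standardised difference of 0.842 in BAT. Without the 4 WAT arrays with high Adam7, 10 members had a higher mean in WAT, the median was −0.15, and 15 members had p under 0.05 between BAT and WAT. Without the 4 BAT arrays with muscle genes, 11 members had p under 0.05 between BAT and WAT and 11 between BAT and liver. Members called as varying alike after adjustment numbered 2 between BAT and WAT and 1 between BAT and liver with scores centred within treatments, and 9 and 4 by Pearson's r. Probe sets whose treatment difference differed between BAT and WAT, BAT and liver, and WAT and liver numbered 28, 123 and 148, but 1, 0 and 0 without moderation of the variance and 1, 1 and 5 under quantile normalization. Quantile normalization over all arrays left 0 members past 1 score unit between BAT and WAT.

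Leaving out each mouse in turn gave 0 to 5 limma calls in BAT (5 without CAAM mouse 2), 0 to 1 in WAT (1 without water mouse 7) and 0 to 1 in liver (1 without CAAM mouse 7). Rank products called 2 to 10, 1 to 7 and 10 to 22 members in BAT, WAT and liver. Members with a higher mean numbered 15 to 30 in BAT and 13 to 31 in WAT, and the median standardised difference ran between −0.0294 and 0.756 in BAT, −0.0793 and 0.689 in WAT and 0.462 and 1.14 in liver. Interactions ran between 10 and 38, 51 and 161, and 81 and 248 in the order of pairs above, and members at p under 0.05 between BAT and liver between 11 and 20. The standardised difference of Gbp2 in BAT ran between −0.176 and 0.791, of Irgm2 in WAT between −0.0134 and 0.962, of Psmb9 in WAT between −0.0793 and 1.03 and of Irf1 in liver between −0.44 and 0.229. Same-numbered CAAM and water mice correlated between −0.2 and 0.15 and shared only a number. With that number as a replicate block, limma called 0 probe sets in each tissue, 25, 28 and 31 members had a higher mean in BAT, WAT and liver, and the median was 0.652, 0.597 and 0.936. Without the mouse as a block, the tissue counts stayed at 5, 6 and 7 members. The shrunken scores and the number of arrays limit the size of difference that could be called.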

Other observations

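Isg15, the ubiquitin-like protein that Usp18 removes, was measured only by a probe set shared with Gm9706, so that its signal cannot be assigned to 1 gene. That probe set had a mean score of 6.79 in BAT, 7.45 in WAT and 7.17 in liver. In liver it was at 0.11, −0.70, 1.55, 0.24 and 1.70 SD units in CAAM mice 2, 4, 5, 6 and 7, and at −1.57 (lowest), −0.44 (median) and 1.03 (highest, mouse 3) in water mice. The standardised difference between CAAM and water was 0.655 in BAT, 0.18 in WAT and 1.10 in liver, and rank products called it higher in liver only (pfp = 0.00846). The difference between tissues in this contrast was not tested. Over the 12 mice, rho was 0.79 between BAT and WAT, 0.59 between BAT and liver and 0.76 between WAT and liver (unadjusted permutation p = 0.00319, 0.0487 and 0.00524).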
